A study of Mus musculus with 62 samples.

Results

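The genes described here are the mitochondrial ribosomal proteins of mouse quadriceps muscle, the nuclear-encoded parts of the ribosome that works inside mitochondria. Members were the rows of the deposited count table whose identifier maps to a protein-coding symbol made of Mrpl or Mrps, a number and an optional letter. The rule found 78 of 55487 rows, 49 named Mrpl and 29 named Mrps, and it left out 5 pseudogene rows. By their known place, 51 belong to the large subunit and 26 to the small one. Mrps30 and Mrps18a carry small-subunit names but sit in the large subunit. Mrps36 is now known as a component of the oxoglutarate dehydrogenase complex and is kept because the rule names it.

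Poly-A RNA was sequenced from the quadriceps of 62 male mice, 1 library each. Voluntary wheel running (labelled Training), nicotinamide riboside (NR, a precursor of the coenzyme NAD related to vitamin B3) and pterostilbene (PT, a stilbenoid of plants) were crossed in 8 groups. Runners given NR and PT numbered 8, runners given NR alone 7, runners given PT alone 8 and runners given neither 7. Each of the 4 matching noTraining groups held 8 mice. In all there were 30 runners and 32 non-runners, 31 mice given NR against 31 that were not, and 32 given PT against 30 that were not. Strain, age, doses and the amount of running are not given in the labels. The labels place each mouse in 1 of 2 cohorts and on 1 of 8 days of termination, at noon (31 mice) or in the morning (31 mice). Within a day all runners share 1 of these times and all non-runners the other, so on a single day running and time of termination cannot be told apart.

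Libraries held 5.64 to 30.8 M counts, with a median of 16.1 M. The library of runner replicate 1 with NR alone stood apart: it had the fewest counts, 16.8% of them on 7 ribosomal-RNA-like genes, where the next highest library had 1.54%. Tests, sums and correlations were repeated without it, and values that moved are given beside many of the results. Skeletal muscle markers were the most abundant of the cell type lists checked, with 6 markers summing to 79997 to 113173 TPM (read counts divided by gene length and scaled to the same total in each library, a level per length) over the other 61 libraries. In bulk tissue, fewer cells of a type and less RNA per cell cannot be told apart.

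Mitochondria keep a small genome that encodes a few membrane-embedded core subunits of oxidative phosphorylation (OXPHOS), the process that makes most of the ATP of oxidative muscle. A dedicated ribosome translates them; its ribosomal RNAs come from that genome, whereas each of its proteins is made in the cytosol from nuclear genes and imported. Some of these proteins descend from bacterial ribosomal proteins and others exist only in mitochondria, and endurance exercise is a known stimulus of mitochondrial content in muscle.

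The genes are spread over 17 chromosomes, with 11 of the 78 on chromosome 11. In the deposited coordinates, 39 overlap another gene and 32 overlap one on the opposite strand. Whether reads were counted by strand is not given in the sources used here, and such pairs may share counts. Mrps11 and Mrpl46 overlap each other on opposite strands of chromosome 7. A protein-coding partner within 1000 bases in head-to-head orientation stood beside 20 of the 78 genes (25.6%), against 7.19% of all 21903 protein-coding rows. Mrpl36, for example, shares such a start region with Ndufs6, a subunit of complex I, at 51 bases, and Mrps12 with Sars2, the mitochondrial seryl-tRNA synthetase, at 172 bases.

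Promoter windows from RefSeq (build GRCm38.p6, 250 bases before to 50 after a start) were found for 69 of the 78 genes, as 75 windows. Letters of 4 motifs were searched on both strands: GCGCA, any 1 base and GCGC for NRF1, CCGGAAG for the ETS factors that include GABP, AAGATGGC for YY1 and AAGGTCA for the estrogen-related receptors. NRF1 and GABP are known regulators of nuclear genes for mitochondrial proteins. The ETS letters were in 34.7% of the member windows, against 11.9% of 20143 windows of protein-coding genes and 8.86% of all 32851 windows. The NRF1 letters were in 17.3% of member windows, against 6.60% and 4.60%, and the YY1 letters in 16.0%, against 3.11% and 2.75%. The receptor letters were in 5.33% of member windows, against 3.97% and 4.72%. At least 1 of the 4 was in 58.7% of member windows, against 22.8% of protein-coding and 18.9% of all windows. These are matches of letters, not sites shown to be bound, and an ETS match can share its last 3 letters with a YY1 match.

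The 4 upstream windows below are RefSeq sequences of the coding strand, 5′ to 3′, each ending at the base before the start. They show how the matches lie: Mrpl9 and Mrpl12 were called higher in runners and hold NRF1 letters, Mrpl45 was not called and holds NRF1 letters in more than 1 place, and Mrpl34 holds ETS letters. Capitals mark the motif letters, which begin 28 bases before the start in Mrpl9, 81 in Mrpl12, 120 and 38 in Mrpl45 and 37 in Mrpl34.
Mrpl9 (chr3:94443086-94443335, + strand): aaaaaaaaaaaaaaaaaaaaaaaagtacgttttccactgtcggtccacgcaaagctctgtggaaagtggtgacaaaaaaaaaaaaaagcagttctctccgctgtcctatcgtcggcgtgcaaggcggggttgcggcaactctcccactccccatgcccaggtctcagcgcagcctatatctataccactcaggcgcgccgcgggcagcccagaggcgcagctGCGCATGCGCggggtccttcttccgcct
Mrpl12 (chr11:120484387-120484636, + strand): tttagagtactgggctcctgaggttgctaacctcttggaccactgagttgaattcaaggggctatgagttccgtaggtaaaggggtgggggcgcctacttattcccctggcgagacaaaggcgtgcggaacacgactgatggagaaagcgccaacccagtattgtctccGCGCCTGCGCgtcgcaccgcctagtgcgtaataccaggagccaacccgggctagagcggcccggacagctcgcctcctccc
Mrpl45 (chr11:97315466-97315715, + strand): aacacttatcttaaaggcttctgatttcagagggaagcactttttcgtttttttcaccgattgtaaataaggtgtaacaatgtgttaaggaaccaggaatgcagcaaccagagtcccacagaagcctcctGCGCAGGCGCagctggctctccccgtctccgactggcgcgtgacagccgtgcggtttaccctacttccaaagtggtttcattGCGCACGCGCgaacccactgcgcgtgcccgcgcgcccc
Mrpl34 (chr8:71464676-71464925, + strand): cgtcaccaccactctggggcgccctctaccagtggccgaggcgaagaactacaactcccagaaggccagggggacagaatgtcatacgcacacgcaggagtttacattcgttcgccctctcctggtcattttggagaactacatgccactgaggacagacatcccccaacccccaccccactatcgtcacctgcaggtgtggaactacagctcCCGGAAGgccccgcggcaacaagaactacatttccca

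Of the 8 genes called for running below, Mrpl9, Mrpl39, Mrpl12 and Mrps9 hold the NRF1 letters in a window. Mrps5, Mrpl10 and Mrpl28 hold none of the 4 motifs, and Mrpl38 has no window in the table.

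Per length, the genes spanned a wide range of levels in muscle. Mrps21 was the highest, at 168 ± 13.9 TPM (SD, n = 61 libraries, runner replicate 1 with NR alone left out), followed by Mrpl18 at 131 ± 10.7 TPM, Mrpl12 at 127 ± 14.1 TPM, Mrps28 at 123 ± 10.4 TPM and Mrps23 at 119 ± 6.86 TPM. These neighbours in the order did not separate: Mrps21 ran from 138 to 203 TPM and Mrpl18 from 105 to 158 TPM over the libraries, and the ranges of the next 3 overlap that of Mrpl18. The lowest were Mrpl53 at 0.115 ± 0.189 TPM, Mrps35 at 4.69 ± 0.532 TPM and Mrpl23 at 5.89 ± 0.834 TPM. Mrpl53 averaged 0.58 counts a library, is overlapped by Gm42688 on the same strand and did not pass the filter on low counts, which left 77 members for testing. The median member had a mean of 32.3 TPM, against 310 TPM for the median of 81 nuclear OXPHOS subunit genes and 108 TPM for the median of 76 cytosolic ribosomal protein genes. Summed, the 78 genes reached 3201 ± 160 TPM, the OXPHOS genes 33623 ± 2715 TPM and the cytosolic ribosomal proteins 12478 ± 942 TPM (SD, n = 61). Members of the large subunit had a median of 34.2 TPM and those of the small subunit 18.4 TPM.

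**Figure D1:**
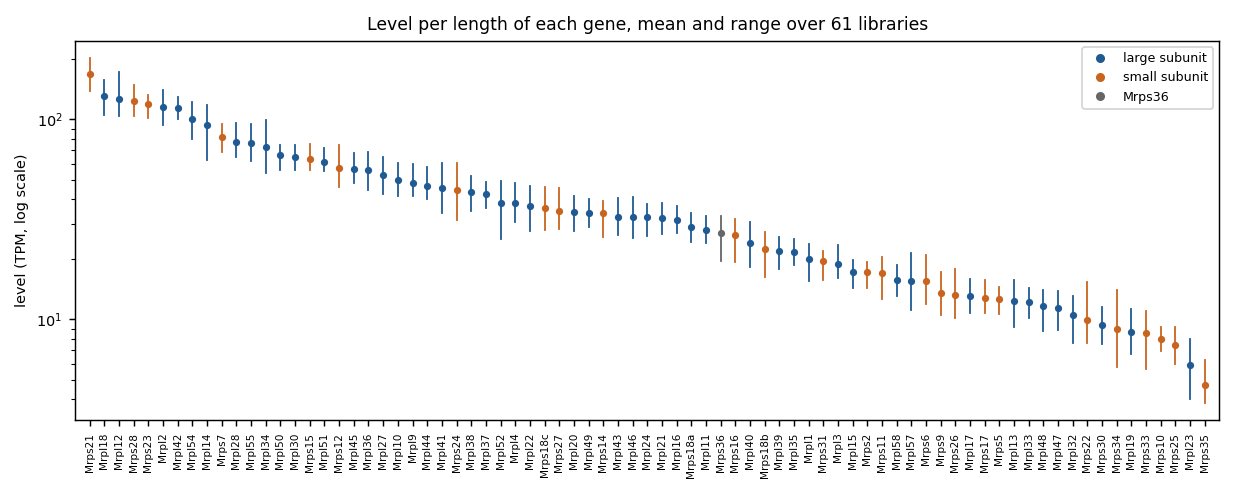
Level per length of 77 mitochondrial ribosomal protein genes in TPM on a log axis, with the mean as a point and the lowest to highest of 61 libraries as a line, coloured by subunit. Levels fall from Mrps21 at 168 TPM to Mrps35 at 4.69 TPM. Mrpl53, listed at 0 in some libraries, is not drawn.

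Running was compared first, to ask whether the mRNAs of the mitochondrial ribosome differ in quadriceps of mice with a wheel. The differences were small and mostly upward. By edgeR's quasi-likelihood test with Benjamini-Hochberg adjustment over 14549 genes, 8 of 77 members (10.4%) rose in runners and none fell, where the same test called 8.41% of all genes higher, 5.58% lower and 14% in either direction. The share of members called is thus near the background. Of the 77, 66 had a log2 fold change above 0, with a median of 0.04 and a range of -0.09 to 0.15, while over all genes the median was 0.01 and 55.1% lay above 0. At an unadjusted p below 0.05 stood 23 members, 22 of them higher, against 28.5% of all genes. The large subunit had 6 of 50 members called with a median log2 fold change of 0.06, and the small subunit 2 of 26 with a median of 0.02. Proteins with a bacterial homologue had 6 of 48 called and mitochondria-specific ones 2 of 28. Among the 39 genes that overlap no other gene, 5 were called.

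Several called members are core proteins of the large subunit with bacterial relatives. Mrpl12 (ENSMUSG00000039640, chr11:120484613-120488457, mm10) is the stalk protein of the large subunit, through which translation factors are recruited in bacterial ribosomes. Its lowest, median and highest levels were 49.1, 74.7 and 98.9 CPM (counts scaled by library size) in runners, against 55.8, 66.8 and 85.0 CPM in non-runners. The groups overlap over most of their range, and Mrpl12 was higher in the runner of 22 of 30 pairs that share a day and supplements. Its log2 fold change was 0.15 ± 0.04 (SE; edgeR adjusted p = 0.0146). Mrpl10 (ENSMUSG00000001445, chr11:97041560-97048518), which holds the stalk on the ribosome, had 24.3, 32.0 and 38.2 CPM in runners, against 24.8, 29.6 and 34.5 CPM in non-runners. It rose by 0.11 ± 0.04 on the log2 scale (edgeR adjusted p = 0.0397) and was higher in 20 of 30 pairs. Mrpl9 (ENSMUSG00000028140, chr3:94443318-94451130) had the smallest p of the family, with 35.9, 48.9 and 62.2 CPM in runners, against 40.0, 45.3 and 51.2 CPM in non-runners. The lowest runner lay under every non-runner and the highest above every one, and the log2 fold change was 0.13 ± 0.04 (edgeR adjusted p = 0.00973, 21 of 30 pairs higher). Mrpl28 (ENSMUSG00000024181, chr17:26123500-26126613) had 26.9, 41.2 and 49.2 CPM in runners, against 31.3, 36.5 and 46.6 CPM in non-runners. Its log2 fold change was 0.12 ± 0.04 (edgeR adjusted p = 0.0418), with 21 of 30 pairs higher.

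Mrpl38 and Mrpl39 are large-subunit proteins without a bacterial counterpart. Mrpl38 (ENSMUSG00000020775, chr11:116131817-116138868) had 32.3, 42.2 and 49.7 CPM in runners, against 32.3, 38.1 and 48.0 CPM in non-runners, so that only the middle of the groups shifted. Its log2 fold change was 0.12 ± 0.04 (edgeR adjusted p = 0.0176, 20 of 30 pairs higher). Mrpl39 (ENSMUSG00000022889, chr16:84717576-84735742) had 15.5, 21.3 and 26.1 CPM in runners, against 15.3, 19.5 and 22.6 CPM in non-runners, with a log2 fold change of 0.12 ± 0.03 (edgeR adjusted p = 0.0101, 22 of 30 pairs higher). In the small subunit 2 genes rose. Mrps5 (ENSMUSG00000027374, chr2:127587222-127606829), the relative of a bacterial protein at the entry of the mRNA channel, had 27.7, 30.9 and 36.5 CPM in runners, against 24.1, 28.7 and 34.3 CPM in non-runners. It rose by 0.10 ± 0.03 on the log2 scale (edgeR adjusted p = 0.0201, 18 of 30 pairs higher). Mrps9 (ENSMUSG00000060679, chr1:42851233-42905682), a protein of the small-subunit head, had 22.8, 29.6 and 38.0 CPM in runners, against 21.0, 26.9 and 32.2 CPM in non-runners. Its log2 fold change was 0.15 ± 0.05 (edgeR adjusted p = 0.0217, 17 of 30 pairs higher). All 8 changes correspond to between 1.08-fold and 1.11-fold, and in each gene the runners and non-runners overlapped. Runner replicate 1 with NR alone was the lowest runner for all 8 genes, and the lowest of all 62 mice for 59 of the 77 members. Without it the lowest runner had 58.1 CPM of Mrpl12, 26.1 CPM of Mrpl10, 38.6 CPM of Mrpl9, 33.9 CPM of Mrpl28, 34.2 CPM of Mrpl38, 16.9 CPM of Mrpl39 and 24.1 CPM of Mrps9, and all 8 stayed called.

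**Figure D2:**
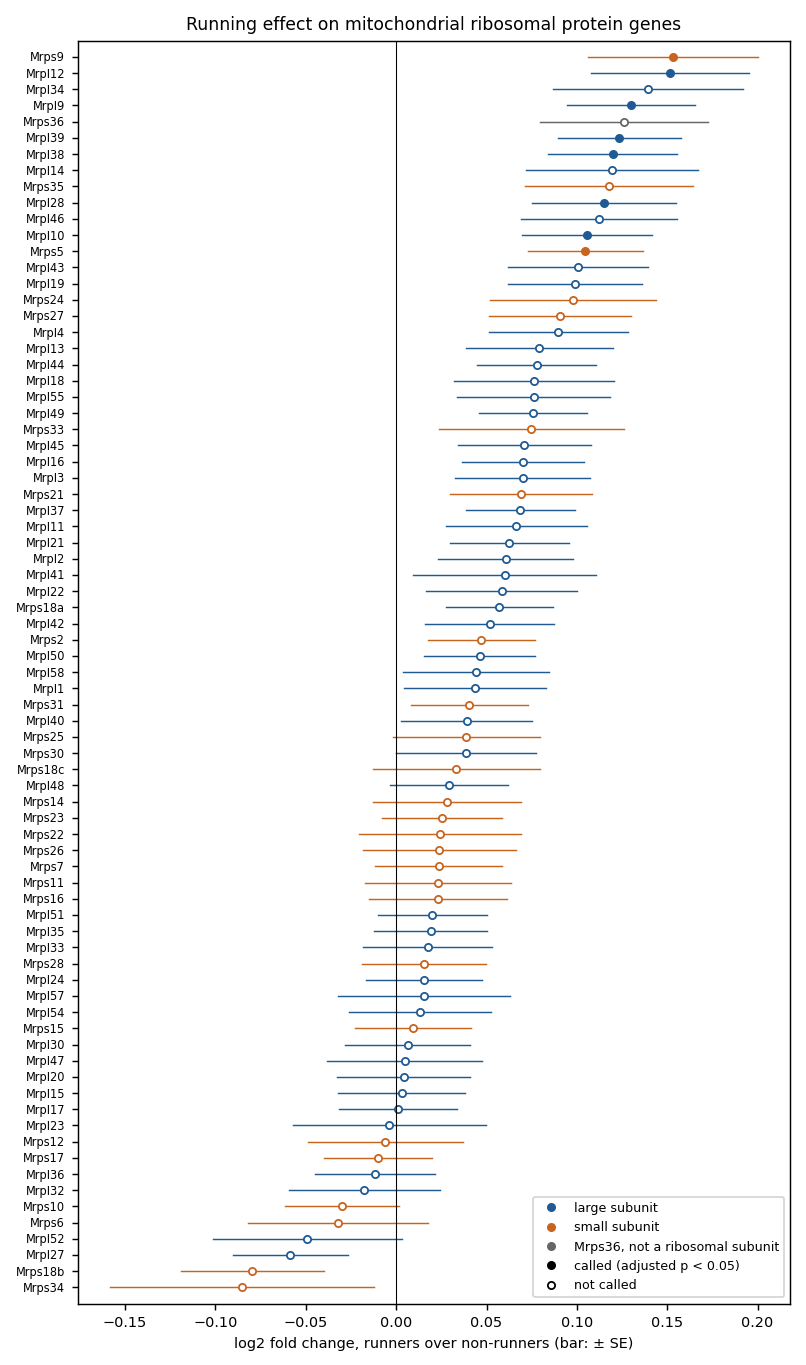
Running effect on each of 77 mitochondrial ribosomal protein genes, as log2 fold change of runners over non-runners with a bar of ± 1 SE, ordered by size and coloured by subunit. Filled points are the 8 genes called at an adjusted p below 0.05, and 11 genes lie below 0, down to Mrps34 at -0.09.

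Of 9 members of special place or role, Mrpl12 and Mrps5 were called, as given above, and the other 7 were not. The 3 paralogues of bacterial S18 differed in sign: the log2 fold change was 0.06 ± 0.03 for Mrps18a of the large subunit (edgeR adjusted p = 0.195), -0.08 ± 0.04 for Mrps18b (edgeR adjusted p = 0.175) and 0.03 ± 0.05 for Mrps18c (edgeR adjusted p = 0.685), the last 2 of the small subunit. Mrps18b had 12.9, 16.8 and 20.6 CPM as its lowest, median and highest in runners, against 14.2, 17.6 and 20.6 CPM in non-runners, and was higher in the runner in 13 of 30 pairs. Mrps30 had a log2 fold change of 0.04 ± 0.04 (edgeR adjusted p = 0.551). Mrpl45, which ties the ribosome to the inner membrane at the exit of its tunnel, had 0.07 ± 0.04 (edgeR adjusted p = 0.193). Mrpl58, a peptidyl-tRNA hydrolase that rescues stalled mitochondrial ribosomes, had 0.04 ± 0.04 (edgeR adjusted p = 0.506). Mrps36, the dehydrogenase component, had 0.13 ± 0.05 (edgeR adjusted p = 0.058) and was higher in 22 of 30 pairs; without runner replicate 1 with NR alone it was called, at an edgeR adjusted p of 0.0199. Mrps34, a small-subunit protein that overlaps genes on both strands, had the lowest value of the family at -0.09 ± 0.07 (edgeR adjusted p = 0.471).

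The number of calls moved with single days, over all genes as well as in the family. Leaving out each day of termination in turn gave between 1 and 10 called members: 1 without day 1 (7.14% of all genes called in either direction), 2 without day 5 (10.4%), 3 without day 4 (8.17%), 4 without day 3 (11.7%), 5 without day 7 (12.5%), 7 without day 8 (11.8%), 8 without day 6 (12.5%) and 10 without day 2 (16.9%). Without day 1 only Mrpl39 was called, and the median log2 fold change of the 77 genes was 0.02. Neither cohort alone gave a called member, with medians of 0.03 in cohort 2, where 0.42% of all genes were called, and 0.06 in cohort 1, where 4.31% were. The 8 genes kept a positive log2 fold change in all 20 alternatives run for the running comparison, in which Mrpl9 was called in 16, Mrpl12 and Mrpl39 in 15 each, Mrpl38 in 14, Mrps5 and Mrps9 in 13 each, and Mrpl10 and Mrpl28 in 9 each. Without runner replicate 1 with NR alone, 11 members were called, all higher, the 8 among them. Over all genes 1112 were then called higher and 1339 lower, against 1223 higher and 812 lower with it. At an unadjusted p below 0.05 then stood 29 members, 28 of them higher (30.4% of all genes). Above 0 lay 66 of 77 members with a median of 0.05, against 49.5% of all genes.

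Day by day, the median difference of the 77 genes between runners and non-runners on the log2 scale was 0.17 on day 1, with 70 of 77 genes above 0. It was -0.04 on day 2, 0.05 on day 3 and 0.02 on day 4, the last day of cohort 1, and then 0.08, -0.02, 0.09 and -0.05 on days 5 to 8 of cohort 2. The median was thus above 0 on 5 of 8 days. Day 2 is the day of runner replicate 1 with NR alone, and without its pair the median of that day was 0.11, with 64 of 77 genes above 0. Runners were taken at noon on days 1, 3, 6 and 8. In cohort 2 the 2 morning days had the higher medians. The nuclear OXPHOS genes varied along with them, with medians of 0.31 on day 1, -0.03 on day 2 (0.18 without the pair of that library) and 0.0011 to 0.22 on the other days.

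**Figure D3:**
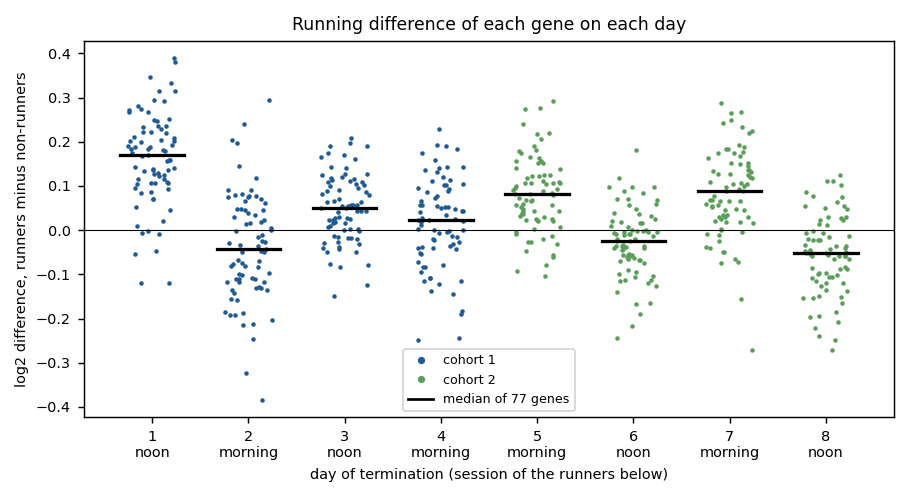
Difference in log2 CPM between runners and non-runners for each of 77 genes on each of 8 days of termination, with the median as a bar. The time at which the runners were taken stands under the day, and 3 or 4 pairs of mice enter each day. Day 1 lies highest, at a median of 0.17, and the medians of days 2, 6 and 8 lie below 0; that of day 2 is 0.11 without the pair of runner replicate 1 with NR alone.

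The rest of the machinery for making mitochondrial proteins was read beside the family, for the same running comparison and with the same edgeR calls. Over all genes that test called 8.41% higher, 5.58% lower and 14% in either direction. The counts of this paragraph are those of the main fit alone. How they move with days, cohorts or single libraries is not given here. Of 5 further ribosome subunits without an Mrpl or Mrps name, 2 rose: Ptcd3 by 0.13 ± 0.04 on the log2 scale (edgeR adjusted p = 0.00844) and Dap3 by 0.08 ± 0.03 (edgeR adjusted p = 0.0467), both small-subunit proteins, while Aurkaip1 had 0.06. Translation factors had 4 of 11 called, all higher. Tufm, the elongation factor that brings tRNA to the ribosome, had 0.19 ± 0.04 (edgeR adjusted p = 0.000111), Gfm1, which moves the ribosome along, 0.14 and Tsfm, which recharges Tufm, 0.17. Of 20 genes that charge mitochondrial tRNAs 6 rose, among them Tars2 at 0.13 and Fars2 at 0.17, the enzymes for threonine and phenylalanine. Of 25 genes for ribosome assembly and ribosomal RNA modification 1 rose, Nsun4, a methyltransferase of ribosomal RNA, at 0.17, while Trub2 had 0.09 and Malsu1 -0.09. Of 12 tested genes for mitochondrial DNA transcription and mRNA stability 2 rose, Tbrg4 at 0.13 and Lrpprc, which stabilises mitochondrial mRNAs, at 0.10, while Tfb2m had 0.05. Of 8 genes that insert or assemble the translated proteins 3 rose: Letm1 at 0.14, Taco1 at 0.15 and Afg3l2, part of the protease that matures Mrpl32, at 0.09.

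The mRNAs of mitochondrial DNA and of nuclear OXPHOS subunits had medians further from 0 than the mRNAs of the ribosome's proteins. Only RNA was measured, not the proteins made from it. Of the 13 protein genes of mitochondrial DNA, 6 averaged at most 5.32 counts a library in the deposited table, where the others averaged at least 61772, and why is not given in the sources used here. The filter passed 8, mt-Nd3 of the low ones among them. Of these 8, 7 were called higher, with a median log2 fold change of 0.19; mt-Co1, a core subunit of complex IV, had 0.28, mt-Cytb of complex III 0.23 and mt-Nd4 of complex I 0.20. Nuclear OXPHOS subunits had 49 of 80 called, all higher, with a median of 0.13 and 79 of 80 above 0; Cox7a1, a muscle form of a complex IV subunit, had 0.34, and Atp5b and Uqcrc1 had 0.20 and 0.22. Cytosolic ribosomal proteins had 0 called higher and 3 called lower of 76, with a median of -0.05: Rpl4 fell by 0.13, Rpl10 fell by 0.15 and Rpl15 fell by 0.10 on the log2 scale. The last 2 counts also move between settings. The OXPHOS genes had 16 called without day 1, 23 without the filter on low counts, 1 in cohort 2 alone, 12 in cohort 1 alone and 65 without runner replicate 1 with NR alone. The cytosolic ribosomal proteins had 0 to 9 called lower over all alternatives. Their median of -0.05 includes that library, in which they summed to 4282 CPM, against 6347 CPM in the next lowest library. The 7 genes of mitochondrial DNA stayed called without it. The differences between lists were not tested. The ratio of summed OXPHOS counts to summed member counts ran from 8.14 to 10.2 with a median of 9.02 in runners, against 7.80 to 9.00 with a median of 8.43 in non-runners, so the groups overlap.

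**Figure D4:**
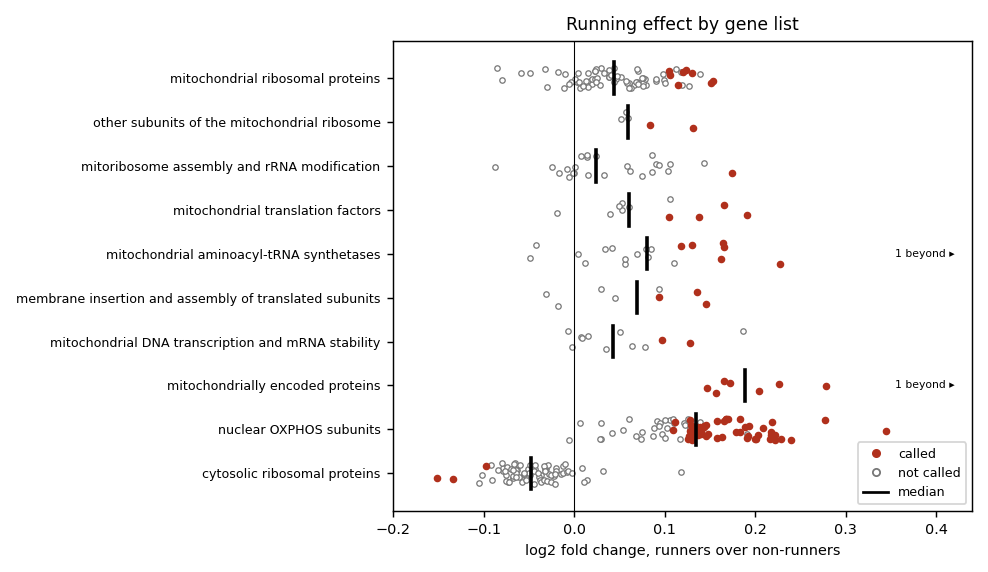
Log2 fold change of runners over non-runners for each gene, by list, with called genes filled and the list's median as a bar. The mitochondrial ribosomal proteins have a median of 0.04, between the nuclear OXPHOS subunits at 0.13 and the cytosolic ribosomal proteins at -0.05. All medians include runner replicate 1 with NR alone. In that library the cytosolic ribosomal proteins summed to 4282 CPM, against 6347 CPM in the next lowest library. Lars2 at 0.74 and mt-Nd3 at 0.75, neither called, lie beyond the axis and are given as a count at its right edge; Lars2 had 117686 CPM in runner replicate 1 with NR alone and -0.38 without that library, and mt-Nd3 averaged 5.32 counts a library.

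Markers of other cell types moved with running as well, in the main fit, where 8.41% of all genes were called higher and 5.58% lower. All 10 endothelial markers passed the filter and were called higher in runners by edgeR, with a median log2 fold change of 0.27; summed, they ran from 278 to 542 CPM in runners, against 266 to 370 CPM in non-runners. Called higher were also 2 of 5 fibroblast, 2 of 5 macrophage and 3 of 4 smooth muscle and pericyte markers, while 1 of 3 Schwann cell markers was called lower and none of 4 adipocyte or 3 erythrocyte markers was called. Fibroblast markers summed to 872 to 1913 CPM in runners, against 577 to 1879 CPM in non-runners, and macrophage markers to 48.7 to 122 CPM in runners, against 39.4 to 111 CPM in non-runners. Of 6 skeletal muscle markers only Mb, myoglobin, was called, at a log2 fold change of 0.67. The part of these cells in the changes of the ribosomal protein genes was not tested.

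NR gave no called member. By edgeR 0 of 77 passed, as did 0 by DESeq2, and 2 had an unadjusted p below 0.05, where 0.0206% of all genes were called (0.0137% higher and 0.00687% lower) and 5.69% had an unadjusted p below 0.05. The median log2 fold change was 0.01, with 49 of 77 above 0. The smallest p was that of Mrps17, a small-subunit protein, with 21.7, 30.9 and 37.6 CPM as lowest, median and highest with NR, against 25.4, 29.6 and 32.3 CPM without. The lowest mouse with NR was runner replicate 1 with NR alone, without which the lowest had 27.1 CPM, and the log2 fold change was 0.06 ± 0.03 (edgeR adjusted p = 0.852). Mrpl14 had 0.10 ± 0.05 (edgeR adjusted p = 0.872) and Mrpl27 -0.06 ± 0.03 (edgeR adjusted p = 0.883), both of the large subunit. Without runner replicate 1 with NR alone, 5 members had an unadjusted p below 0.05 (7.37% of all genes), 69 of 77 lay above 0 and the median was 0.03.

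PT likewise gave 0 called members by edgeR and 0 by DESeq2, as it gave 0 called genes in the whole table. At an unadjusted p below 0.05 stood 15 of 77 members, all of them higher with PT, against 3.99% of all genes, and 73 of 77 lay above 0 with a median log2 fold change of 0.05. Without runner replicate 1 with NR alone, the lowest library without PT, 6 of 77 members had such a p (3.03% of all genes), 69 lay above 0 and the median was 0.03. The number with such a p was 10 without day 1, 5 without day 2 and 18 without day 3. It was 3 without day 4, 23 without day 5, 14 without day 6, 22 without day 7 and 7 without day 8. A replicate block gave 8, cohort 1 alone 19 and cohort 2 alone 1. Over these settings the share of all genes ran from 2% in cohort 2 alone to 5.59% in cohort 1 alone. Mrpl27 had 16.1, 19.3 and 22.9 CPM as lowest, median and highest with PT, against 11.9, 18.1 and 21.1 CPM without (lowest 15.6 CPM when that library is left out), a log2 fold change of 0.11 ± 0.03 (unadjusted p = 0.00157, edgeR adjusted p = 1). It was higher with PT in 21 of 30 pairs. Mrps15 had 35.1, 40.0 and 47.2 CPM with PT, against 23.0, 37.4 and 43.1 CPM without (lowest 34.3 CPM when it is left out), and a log2 fold change of 0.09 ± 0.03 (edgeR adjusted p = 1). Mrpl34 had 0.14 ± 0.05 (edgeR adjusted p = 1) and was higher in 23 of 30 pairs. The companion lists lay above 0 as well: 79 of 80 OXPHOS genes lay above 0 with a median of 0.07, and 75 of 76 cytosolic ribosomal proteins with a median of 0.06. Both values include runner replicate 1 with NR alone, which had the lowest sums of these lists. Its OXPHOS sum was 15561 CPM (next lowest 17214 CPM) and its cytosolic sum 4282 CPM (next lowest 6347 CPM). On day 2 the median PT difference of the OXPHOS genes was 0.31 with its pair and 0.03 without it. The median of the members was 0.02 in cohort 2 alone and 0.09 in cohort 1 alone, it was 0.03 without day 2, and within single days it ranged from -0.05 on day 5 to 0.20 on day 2, or 0.04 on day 2 without the pair of that library. The summed level of the family averaged 2520 ± 161 CPM with PT (SD, n = 32) and 2420 ± 192 CPM without (SD, n = 30), or 2444 ± 141 CPM without PT when runner replicate 1 with NR alone is left out (SD, n = 29).

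No interaction was called for any member by edgeR, and none by DESeq2. For running by NR 1 of 77 had an unadjusted p below 0.05 (3.61% of all genes), for running by PT 0 (3.51%), for NR by PT 2 (2.25%) and for the interaction of all 3 factors 0 (2.77%). Above 0 lay 31, 41, 67 and 50 of 77, with medians of -0.01, 0.01, 0.06 and 0.04. Over all genes 51.5%, 51.1%, 51.1% and 49.4% lay above 0. Without runner replicate 1 with NR alone the unadjusted counts were 1, 3, 0 and 0 (3.65%, 3.84%, 2.31% and 3.01% of all genes). Then 43, 27, 54 and 30 lay above 0, with medians of 0.01, -0.02, 0.03 and -0.02. Mrps31 had the smallest p for running by NR, with a running effect lower by 0.15 ± 0.07 on the log2 scale when NR was given (edgeR adjusted p = 1), and Mrpl49 and Mrps34 followed at -0.08 and 0.21. For running by PT the 3 were Mrpl23 at -0.21 ± 0.11, Mrps2 at 0.11 and Mrpl40 at 0.13, and for NR by PT Mrpl19 at 0.16 ± 0.07, Mrps31 at 0.13 and Mrpl37 at 0.12 (edgeR adjusted p = 1 for each). Within single supplement arms running called 0 of 77 members with both supplements, NR alone, PT alone or neither by edgeR, where it called 1.7%, 0.447%, 0.00687% and 0% of all genes. With both supplements 0.825% of all genes were called higher in runners and 0.873% lower, and with NR alone 0.406% higher and 0.0412% lower. By unadjusted p below 0.05 the members numbered 11, 2, 7 and 3 in these arms (16.6%, 10.9%, 9.22% and 6.8% of all genes), and their medians were 0.04, 0.04, 0.06 and 0.06. Without runner replicate 1 with NR alone no interaction or arm gave a called member either. The unadjusted counts in the 4 arms were then 7, 7, 7 and 4 (19.1%, 10.6%, 10.6% and 7.99% of all genes). Their medians were then 0.02, 0.07, 0.05 and 0.06. Mrpl12, for example, had log2 fold changes of 0.18, 0.11, 0.17 and 0.15 in these 4 arms.

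**Figure D5:**
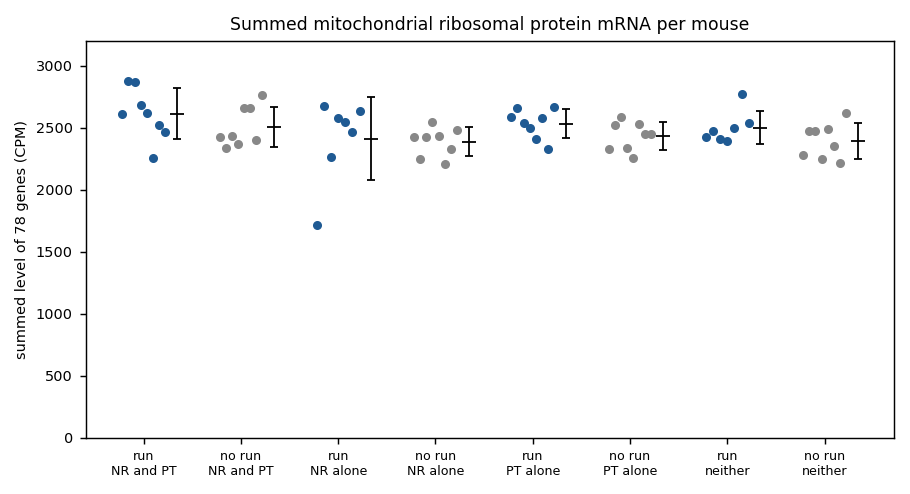
Summed level of the 78 genes in CPM for each mouse, with the group mean ± SD beside the points and runners left of non-runners within each supplement arm. The group means lie between 2386 CPM in non-runners with NR alone and 2612 CPM in runners with both supplements, and runner replicate 1 with NR alone lies lowest at 1714 CPM.

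Summed over the 78 genes, runners ran from 1714 to 2874 CPM with a median of 2537 CPM, against 2206 to 2762 CPM with a median of 2428 CPM in non-runners; without runner replicate 1 with NR alone the runners began at 2255 CPM. The ratio of the large to the small subunit was narrow, at 2.67 ± 0.04 in runners (SD, n = 30) and 2.63 ± 0.04 in non-runners (SD, n = 32). Noon against morning, adjusted for group and day, gave 0 called members by edgeR and 0 by DESeq2, 2 members at an unadjusted p below 0.05 (5.28% of all genes) and a median log2 fold change of -0.0046. The smallest p was that of Mrpl20, with 17.0, 19.9 and 23.6 CPM at noon, against 12.9, 21.0 and 26.2 CPM in the morning (lowest 17.6 CPM without runner replicate 1 with NR alone), a log2 fold change of -0.09 ± 0.04 (edgeR adjusted p = 0.805). Mrpl39 and Mrps22 followed at -0.07 and -0.09. Without runner replicate 1 with NR alone 4 members had an unadjusted p below 0.05 for time (6.09% of all genes). The median was then -0.02, with 21 of 77 above 0, against 30 of 77 with that library.

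The genes of the family also varied together between mice. After group, day and time were taken out, the residual log2 CPM of 2 members correlated with a median Pearson r of 0.51 over 2926 pairs of genes (n = 62 libraries), and 99% of pairs were above 0. Without runner replicate 1 with NR alone the median was 0.37 and 97.3% of pairs were above 0 (n = 61), and over all pairs of the 14549 tested genes it was -0.003 with that library and -0.004 without it. The same median was 0.78 for the nuclear OXPHOS genes and 0.73 for the cytosolic ribosomal proteins, 0.54 within the large subunit and 0.42 within the small one; without that library these were 0.70, 0.54, 0.41 and 0.31. These libraries share depth and composition, so the values describe the libraries and carry no test. The closest pair was Mrpl18 and Mrps23, at 0.88 with that library and 0.82 without it. Mrpl12 followed the other members most in the 61 libraries, with a median r of 0.59 (0.66 in all 62), and Mrps18b at 0.12 and Mrps34 at 0.14 least (0.23 and 0.13 in all 62). The overlapping pair Mrps11 and Mrpl46 had 0.57, or 0.33 without that library.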

How the data were processed

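Quadriceps RNA from 62 male mice was measured as whole-number read counts per gene, deposited by the authors without normalization. Per the submitters' processing notes, STAR 2.7.3a, featureCounts 2.0.0 and the mouse build mm10 were used. Neither the annotation release nor the use of strand in counting is given in the sources used here. Symbols were matched through GENCODE M21 for 55394 of 55487 identifiers (99.8%), and coordinates are printed as deposited.

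filterByExpr, at a minimum count of 10 and a minimum total of 15, kept 14549 genes. Counts were scaled by TMM and fitted with edgeR 4.0.16 (robust quasi-likelihood F test, R 4.3.3). The fit held the 8 groups, the 8 days and the time of termination, which left 46 residual degrees of freedom, with a biological coefficient of variation of 14.0%. Main effects are means over the groups with a factor minus means over those without it. Tests were two-sided, with Benjamini-Hochberg adjustment over all genes of a contrast and calls at an adjusted p below 0.05. CPM use TMM-scaled library sizes, and TPM use the deposited gene lengths. TPM leave out runner replicate 1 with NR alone, a choice made after seeing the data. Daily differences are between mice of 1 day with the same supplements. Residual correlations use log2 CPM with a prior count of 0.5. The fit was tested on simulated counts.

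The family and all gene lists were chosen with earlier results of these data known. Named for running were the called members with the smallest p (at most 10), for the other factors and interactions the 3 smallest p, the 5 highest and 3 lowest levels, 9 members of special place or role, and 3 genes a companion list, of which 1 gene is not reported here. Mrps34, the closest pairs and a few genes given as examples were chosen after their values were seen. Companion lists held other ribosome subunits, assembly, translation, tRNA charging, insertion, mitochondrial transcription, OXPHOS, cytosolic ribosomal proteins and markers of 8 cell types. Alternatives were DESeq2 1.42.0, RLE scaling, no filter, other covariates, a replicate block, counts summed per session (1 day and running state), each cohort, each day left out, and 2 sets of libraries left out. Any 2 replicates of a group differed by a chi-square of at least 4.49 per gene, so no libraries were merged. No molecular identifiers are named in the sources used here, and read counts without them are not independent molecules.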

Additional observations from a re-analysis of the deposited data

Results flagged for a closer look

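Of the 8 groups of mice, 2 held a mouse far from the others of its group by Dixon's test. Chance flags about 1 in 20 groups for a single sum, and more where several sums are examined, as here. The flagged gaps were 0.572 to 0.623 of the range of the group, close to the limit of 0.568. Each group was examined for 3 overlapping sums (the family, the large and the small subunit), and each of the 2 mice stood apart in 2 of them, so these are not separate findings. Runner replicate 1 with NR alone had a summed level of 1714 CPM over the family, where the other 6 mice of its group ran from 2261 to 2671 CPM. Its small-subunit sum was 472 CPM, against 618 to 720 CPM in the others. This library also had the fewest counts and the highest share of ribosomal-RNA-like counts, 16.8%; the part of these in its low sum was not tested. Runner replicate 6 with neither supplement had the opposite place, with 2769 CPM over the family against 2389 to 2538 CPM in the others, and 2020 CPM over the large subunit against 1734 to 1842 CPM.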

How the results depend on the processing

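The count of members called for running was 8 in the fit described, where 14.0% of all genes were called in either direction. It was 10 with DESeq2 (16.4% of all genes), 6 with RLE scaling (14.7%) and 9 with cohort in place of day (14.1%). It was 8 without the time of termination (14.2%) and 8 with purification pool added (13.5%). It moved to 5 with counts summed per session (1275 of all genes called, against 2035), to 1 without a filter on low counts (1333 of 35005 genes), to 0 in cohort 1 alone (623 of 14448) and to 0 in cohort 2 alone (63 of 15017). Leaving out each day gave 1 to 10 (7.14% to 16.9% of all genes). Chosen after seeing the data, leaving out the 3 libraries above 1% ribosomal-RNA-like counts gave 10 (15.8%), and leaving out runner replicate 1 with NR alone gave 11 (16.8%). The 8 called members kept their sign in each alternative; of the 69 uncalled ones, 17 turned sign in cohort 2 alone and 19 without day 1. Of those named, Mrps18b turned to 0.018, Mrps18c to -0.051 and Mrps30 to -0.0057 in cohort 2 alone. Mrps18b was called lower without day 6. NR, PT, the interactions, the single arms and time of termination gave 0 called members under each alternative run for them. Replicate numbers did not pair mice: over 211 same-numbered pairs the median correlation of deviations was 0.0058, and 28 were over 0.1. With the replicate block 10 members were called, the 8 among them (14.1% of all genes called). The cause of these moves was not tested. The members' differences are near 1.1-fold and the session fit has 6 residual degrees of freedom, which limits what single days can show.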

Other observations

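The time of termination term went opposite ways in the fits of the single cohorts, which keep all libraries. Within a day the time follows the running state. In a single cohort this term therefore cannot be told apart from variation of the running difference between days. Mice of the same session share their time and are not separate replicates of it. The median log2 difference of noon over morning was -0.05 in cohort 2 alone, with 8 of 77 members above 0, and 0.05 in cohort 1 alone, with 68 of 77 above 0. Nuclear OXPHOS genes had -0.08 and 0.07 in these cohorts. No member was called in either by edgeR, where 254 of 15017 genes were called in cohort 2 alone and 0 of 14448 in cohort 1 alone (517 at an unadjusted p below 0.05), and the difference between cohorts was not tested. Cohort 1 holds runner replicate 1 with NR alone, a morning library of day 2 and the lowest of all mice for 59 of the 77 members. The running median of day 2, when runners were taken in the morning, was -0.04 with its pair and 0.11 without it. The fit of cohort 1 was not repeated without that library. In the head-to-head pairs, Mrps5 was called higher in runners at a log2 fold change of 0.10 while its partner Zfp661 had 0.03 ± 0.05 (SE). Mrpl37 was not called at 0.07 while its partner Cyb5rl rose at 0.14 ± 0.05 (SE, edgeR adjusted p = 0.0443). In the other pairs with both genes tested neither gene was called. Differences within a pair were not tested.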
